A study of Mus musculus with 9 samples.

Results

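The 9 genes described here encode enzymes that add or remove methyl groups on lysine 9 of histone H3 (H3K9): the methyltransferases Setdb1, Ehmt1 and Ehmt2, the KDM3 demethylases Kdm3a, Kdm3b and Jmjd1c, and the KDM4 demethylases Kdm4a, Kdm4b and Kdm4c. They were named for their role in H3K9 methylation; earlier results of these data were known when they were named, although no measured value entered the rule. Each was read from 1 probe set, the only one that carried its symbol alone in the platform annotation, out of 22180 genes represented this way and 41345 probe sets on the array. All 9 passed a filter on dim probe sets.

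The samples were leukemia cells of the mouse MLL-AF9 model of acute myeloid leukemia, sorted from the spleens of recipient mice and profiled with Affymetrix Mouse Gene 2.0 ST arrays. The leukemia had been made by retroviral delivery of the human fusion, linked to GFP, to cells that carry a doxycycline (Dox) responsive tetO cassette of Oct4, Sox2, Klf4 and c-Myc (OSKM). Control cells (n = 3 arrays) carry the same fusion and cassette and came from mice that were not given Dox, and the other 2 groups came from mice given Dox for 48 h (n = 3) or 72 h (n = 3). No group received Dox without the cassette, so the drug and the factors cannot be told apart, and only cells that were still present and passed the sort were measured. Replicates are labelled biological, but whether each is a separate mouse is not given, and p-values then reflect only how far the arrays of a group spread. Array signals are given as log2 values per probe set, and a difference between groups is a difference of mean log2 values. In sorted bulk RNA, fewer cells of a type and less RNA per cell cannot be told apart.

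Methylation of H3K9 marks silent chromatin. Setdb1 trimethylates H3K9 at retroelements and many genes, where it is brought by KRAB zinc finger proteins and their co-repressor Trim28. Ehmt1 and Ehmt2 (also called GLP and G9a) act as a heterodimer that places the mono- and dimethyl marks in euchromatin. The KDM3 enzymes remove mono- and dimethyl marks and the KDM4 enzymes remove trimethyl marks, and both families need iron, oxygen and 2-oxoglutarate. In this study the enzymes bear on whether the expression of H3K9 regulators moved when OSKM was switched on in leukemia cells.

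Promoter windows of 2 genes are shown because Kdm3a is the H3K9 demethylase that the study followed and Setdb1 a trimethylating enzyme whose expression it examined, and because Klf4, an induced factor, belongs to a family known to bind GC-rich boxes. RefSeq windows of 300 bases (250 before to 50 after an annotated start, GRCm38.p6) were read for 7 of the 9 genes, 12 windows in all. Of these, 3 lie at different annotated starts of Kdm3a, of which 1 is shown. Windows of these genes on 1 chromosome were left out, so a gene that is absent here may still have an annotated window. Capitals mark every GGGCGG, here called a GC box, and every match to the motif CACCC, on either strand, and neighbouring or overlapping matches run together. The first window is chr6:71632868-71633167, minus strand, and the second is chr3:95357153-95357452, minus strand.
Kdm3a: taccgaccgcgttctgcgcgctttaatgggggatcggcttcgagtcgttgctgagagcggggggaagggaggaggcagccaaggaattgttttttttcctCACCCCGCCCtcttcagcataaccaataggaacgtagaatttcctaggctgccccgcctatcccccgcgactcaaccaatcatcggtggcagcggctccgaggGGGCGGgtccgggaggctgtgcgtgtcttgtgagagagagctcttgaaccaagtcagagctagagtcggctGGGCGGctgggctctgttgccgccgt
Setdb1: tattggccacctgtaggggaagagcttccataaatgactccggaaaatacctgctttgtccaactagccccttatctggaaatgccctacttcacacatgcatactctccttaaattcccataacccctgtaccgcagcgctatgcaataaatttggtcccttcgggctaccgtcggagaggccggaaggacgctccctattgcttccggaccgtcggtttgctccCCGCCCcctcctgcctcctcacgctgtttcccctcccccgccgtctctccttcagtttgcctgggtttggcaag

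The Kdm3a window shown held 3 GC boxes and 1 CACCC match, 1 of each overlapping in the first capital run, whereas the other Kdm3a windows held 4 GC boxes with 3 CACCC matches and 0 GC boxes with 5. The Setdb1 window held 1 GC box and 0 CACCC matches. Such letters are common: GGGCGG was present in 35.7% and CACCC in 57.5% of 32851 mouse promoter windows of the same length. The octamer core ATGCAAA and the SOX core CATTGTT, searched on both strands, were in 0 of the 12 windows read for these genes, against 4.63% and 3.78% of all windows. The set of all windows was not cut by chromosome. These matches describe letters and are not sites of binding.

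The Dox 72 h replicate 3 array stood apart and is named before any result. It held the lowest value of the 9 arrays for 23 of 40 measured histone methylation genes (57.5%), and for 24.6% of 20672 bright probe sets. Its mean over 4 B cell markers was 6.04 against 4.51 to 4.91 on the other arrays, and over 4 T cell markers 4.78 against 3.63 to 4.45, the upper end being control replicate 3. The means of NK cell (4.34 against 3.32 to 3.8), macrophage (7.15 against 6.01 to 7), erythroid (2 of 5 markers measured, 5.05 against 3.70 to 4.17) and endothelial markers (5.14 against 4.73 to 5.02) were also highest on Dox 72 h replicate 3. For macrophage and erythroid markers the upper end of the other arrays was again control replicate 3. The Dox 72 h replicate 3 mean over 8 genes listed as leukemia markers (Hoxa9, Hoxa10, Meis1, Myb, Mef2c, Spi1, Itgam and Ptprc) was 9.22, against 9.41 to 9.58 on the others. Ptprc is a pan-leukocyte antigen, so this list is not specific to leukemia cells. As a check of induction, Klf4 rose by 3.02 at 48 h and 1.97 at 72 h (limma adjusted p = 3.1e-05 and 0.000827). Pou5f1 (Oct4), Sox2 and Myc, at 0.36, 0.03 and -0.14 at 48 h, did not pass (adjusted p = 0.522, 0.954 and 0.81). The study reports by qRT-PCR that OSKM expression rose gradually after Dox in leukemia cells of this model. Whether the probe sets read here detect transcripts of the cassette was not tested. The part of other cells in the results below was not tested. Values without Dox 72 h replicate 3 are given beside the named 72 h differences that it turned or moved by over 1.5 times.

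None of the 9 enzymes passed the test in any comparison (limma with Benjamini-Hochberg adjustment over 41345 probe sets, threshold 0.05). The share of all probe sets that passed was 1.6% at 48 h against control, 2.49% at 72 h against control, 0.215% at 72 h against 48 h, 2.3% for both Dox times against control and 2.24% by the moderated F test over the 3 groups. At an unadjusted p under 0.05, 2 of the 9 genes stood out in each comparison. These were Kdm3a and Ehmt1 at 48 h, where 10.2% of all probe sets did so, Jmjd1c and Setdb1 at 72 h (16.8%), Jmjd1c and Ehmt1 between the times (12.3%), and Kdm3a and Kdm4b for both Dox times (14%). The comparisons with control share the same 3 control arrays. The median difference of the 9 genes was 0.08 at 48 h and 0.07 at 72 h, and that of all probe sets -0.02 and -0.01. Without Dox 72 h replicate 3 the median of the 9 genes at 72 h was 0.03.

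**Figure D1:**
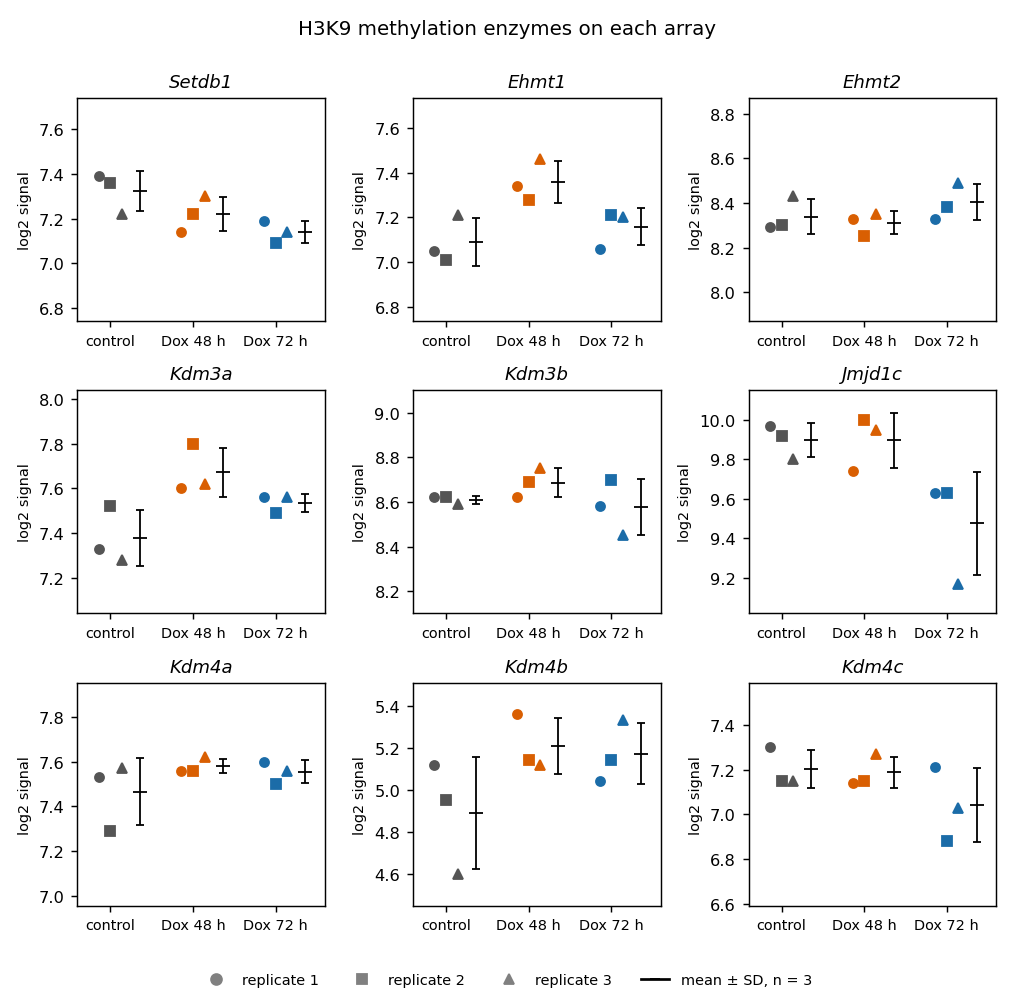
Log2 signal (vertical axis, a span of at least 1 log2 unit in each panel) of the 9 H3K9 methylation enzymes on each array, by group; symbols are replicates 1 to 3, and the black bar is the mean with the SD over 3 arrays. Kdm3a and Ehmt1 at 48 h lie above all controls, Setdb1 and Jmjd1c at 72 h lie below all controls, and Jmjd1c on the Dox 72 h replicate 3 array is at 9.17.

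Kdm3a, a demethylase of mono- and dimethylated H3K9 that is itself induced by hypoxia, read 7.33, 7.52 and 7.28 in the controls, 7.60, 7.80 and 7.62 at 48 h and 7.56, 7.49 and 7.56 at 72 h. All 48 h arrays lay above all controls, and at 72 h control replicate 2 lay above 1 of the 3 Dox arrays. At 48 h the difference was 0.29 ± 0.09 (SE), or 1.23-fold with a 95% interval of 1.07 to 1.41 (limma unadjusted p = 0.00978, adjusted p = 0.227). At 72 h it was 0.16 (95% interval -0.05 to 0.36, adjusted p = 0.422). With its own standard error, Kdm3a would have needed a difference of 0.45 at 48 h and 0.42 at 72 h to pass. From 48 h to 72 h the difference was -0.14 (interval -0.34 to 0.06), with the 3 arrays of each time apart, and did not pass (adjusted p = 0.567).

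Kdm3b, a relative of Kdm3a, read 8.62, 8.62 and 8.59 in the controls, 8.62, 8.69 and 8.75 at 48 h and 8.58, 8.70 and 8.45 at 72 h. Its groups overlapped at both times, with differences of 0.08 (95% interval -0.10 to 0.26) at 48 h and -0.03 (interval -0.21 to 0.15) at 72 h, the latter turning to 0.03 without Dox 72 h replicate 3. Jmjd1c, the third KDM3 family protein, read 9.97, 9.92 and 9.80 in the controls, 9.74, 10 and 9.95 at 48 h and 9.63, 9.63 and 9.17 at 72 h. Its 72 h arrays lay below all arrays of the other 2 groups. The difference at 72 h was -0.42 ± 0.14 (SE), 0.747-fold with an interval of 0.601 to 0.927, and did not pass (adjusted p = 0.166), nor did that against 48 h (-0.42, adjusted p = 0.289). The Dox 72 h replicate 3 array carried much of this: without it the values were -0.27 against control (adjusted p = 0.286) and -0.27 against 48 h (adjusted p = 0.449). At 48 h the Jmjd1c difference from control had an interval of -0.31 to 0.31.

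Setdb1, an enzyme that trimethylates H3K9, read 7.39, 7.36 and 7.22 in the controls, 7.14, 7.22 and 7.30 at 48 h and 7.19, 7.09 and 7.14 at 72 h. The 48 h arrays mixed with the controls, whereas the highest 72 h array lay just below the lowest control. The difference was -0.10 (interval -0.27 to 0.07, adjusted p = 0.745) at 48 h and -0.18 ± 0.07 (SE) at 72 h, 0.88-fold with an interval of 0.782 to 0.99 (adjusted p = 0.26). At 72 h Setdb1 would have needed 0.36 to pass.

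Ehmt1, a subunit of the dimethylating heterodimer, read 7.05, 7.01 and 7.21 in the controls, 7.34, 7.28 and 7.46 at 48 h and 7.06, 7.21 and 7.20 at 72 h. Its 48 h arrays lay above every control and every 72 h array, and the 72 h arrays mixed with the controls. The difference at 48 h was 0.27 ± 0.09 (SE), 1.21-fold with an interval of 1.05 to 1.38 (unadjusted p = 0.013, adjusted p = 0.265), and from 48 h to 72 h it was -0.20 (interval -0.397 to -0.00482, adjusted p = 0.398). Ehmt2, the other subunit and the better known catalytic one, stayed within 8.25 to 8.49 over the 9 arrays, with overlapping groups. Its differences were -0.03 (interval -0.19 to 0.14) at 48 h and 0.07 (-0.10 to 0.24) at 72 h, or 0.02 without Dox 72 h replicate 3. The 48 h differences of the 2 partners were not tested against each other.

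Of the KDM4 enzymes, Kdm4a read 7.53, 7.29 and 7.57 in the controls, 7.56, 7.56 and 7.62 at 48 h and 7.60, 7.50 and 7.56 at 72 h. Its lowest array was control replicate 2 and its groups overlapped (0.12 at 48 h, interval -0.08 to 0.31, and 0.09 at 72 h, interval -0.11 to 0.28). Kdm4c, which also removes trimethyl marks, read 7.30, 7.15 and 7.15 in the controls, 7.14, 7.15 and 7.27 at 48 h and 7.21, 6.88 and 7.03 at 72 h. Its groups overlapped, at -0.01 (interval -0.24 to 0.21) and -0.16 (interval -0.38 to 0.06). Kdm4b read 5.12, 4.95 and 4.60 in the controls, 5.36, 5.14 and 5.12 at 48 h and 5.04, 5.14 and 5.33 at 72 h. Control replicate 1 lay among the Dox arrays and control replicate 3 lay lowest. The Kdm4b difference was 0.32 at 48 h (interval -0.01 to 0.65, adjusted p = 0.517) and 0.28 at 72 h (interval -0.05 to 0.61, adjusted p = 0.374), the widest intervals among the 9 genes. Without control replicate 3 they were 0.17 and 0.14.

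**Figure D2:**
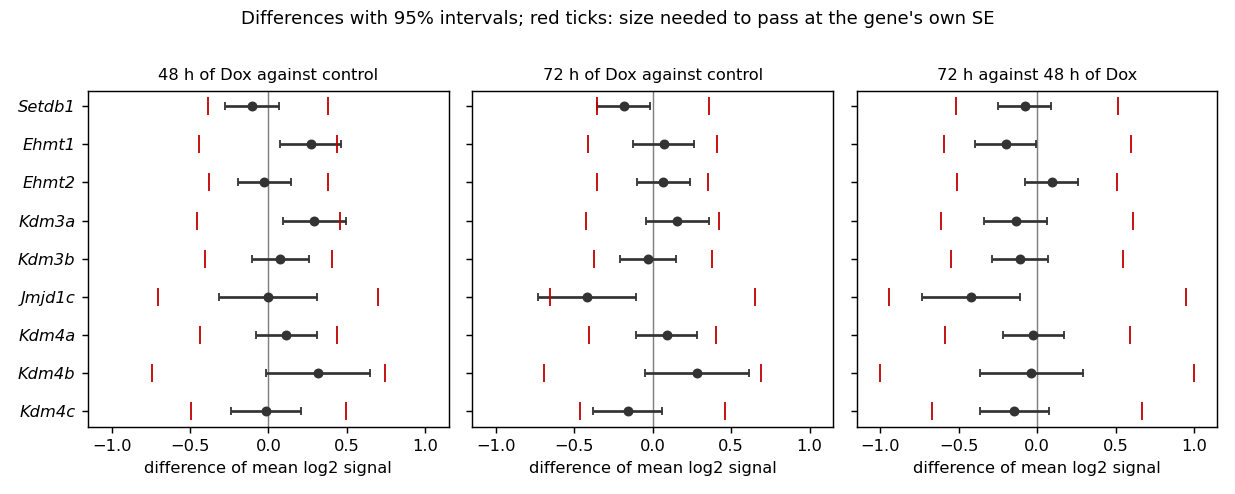
Difference of mean log2 signal (horizontal axis) for each H3K9 enzyme in 3 comparisons; circles are the limma estimates, bars the 95% intervals, and red ticks the difference, in either direction, that the gene would have needed to pass at its own standard error. No circle reaches a red tick, and the nearest at 48 h are Kdm3a (0.29 of 0.45 needed) and Ehmt1 (0.27 of 0.44 needed).

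Counted by whether the 3 arrays of each group overlapped, 2 of the 9 genes (Kdm3a and Ehmt1) lay wholly higher and 0 wholly lower at 48 h, where 7.37% of all probe sets were wholly higher and 8% wholly lower. At 72 h, 0 were wholly higher and 2 (Setdb1 and Jmjd1c) wholly lower, beside 9.1% and 11.6% of all probe sets. From 48 h to 72 h, 3 genes (Kdm3a, Jmjd1c and Ehmt1) were wholly lower and 0 wholly higher, beside 8.15% and 7.13%. No member was apart in the same direction at both times against control. As a description with no test, the mean of the 6 demethylases minus the mean of the 3 methyltransferases on each array was 0.08 higher at 48 h than in the controls and 0.00 higher at 72 h, with SDs of 0.06 to 0.10 within the groups. With medians in place of means these were 0.17 and 0.25. With means, the differences without control replicate 3 were 0.03 and -0.05, and without Dox 72 h replicate 3 the 72 h value was 0.04.

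The other genes of H3K9 methylation came from lists fixed for this purpose, and 0 of their measured members passed in any comparison between groups. Kdm7a, described below, did pass the moderated F test over the 3 groups. Of the 4 other methyltransferases, the medians were 0.07 at 48 h and -0.08 at 72 h. Prdm2, a PR domain protein reported to methylate H3K9, and Mecom, a leukemia-associated PR domain regulator, had the smallest p-values at 48 h or 72 h. Prdm2 was at 0.16 at 48 h, with all arrays above the controls (adjusted p = 0.613), and at -0.07 at 72 h (-0.02 without Dox 72 h replicate 3). Mecom was at 0.00 at 48 h and -0.22 at 72 h (adjusted p = 0.428), and at -0.08 without Dox 72 h replicate 3. Of the 6 other demethylases, the medians were 0.05 and -0.09 (-0.01 without that array), and 2 genes in this list came closer to the threshold at 72 h than any of the 9 enzymes.

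Kdm7a, a PHD finger demethylase of dimethylated H3K9 and H3K27, read 7.69, 7.60 and 7.56 in the controls, 7.60, 8.12 and 8.01 at 48 h and 7.18, 7.07 and 6.98 at 72 h. Its 72 h arrays lay below all 6 others, while its 48 h arrays overlapped the controls. The difference was -0.54 against control (adjusted p = 0.0828) and -0.83 against 48 h (0.562-fold, interval 0.455 to 0.694, adjusted p = 0.0611). It passed against 48 h with dim probe sets removed (adjusted p = 0.0417), with array weights (0.0459) and without Dox 48 h replicate 1 (0.0244), and not without Dox 72 h replicate 3 (-0.78, adjusted p = 0.172). Against control it passed without Dox 48 h replicate 1 (adjusted p = 0.0269). Kdm1a (LSD1), a flavin-dependent demethylase of H3K4 and H3K9, read 7.20, 7.28 and 7.39 in the controls, 7.49, 7.34 and 7.39 at 48 h and 7.50, 7.52 and 7.63 at 72 h. Its 72 h arrays were above all others, by 0.26 over control (interval 0.08 to 0.44, adjusted p = 0.139).

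**Figure D3:**
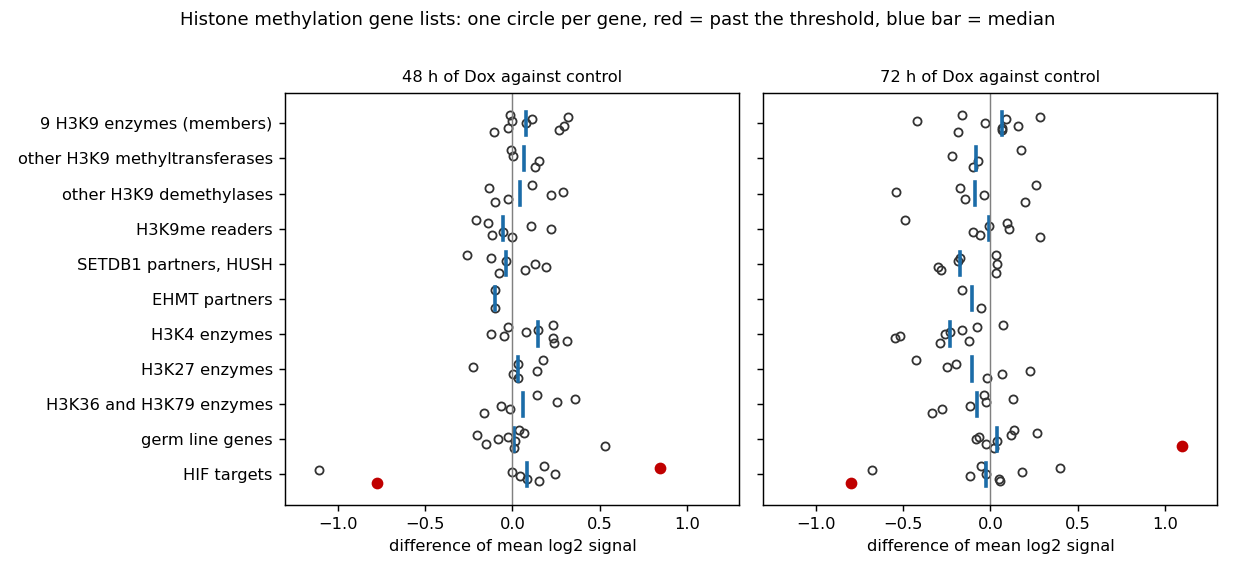
Difference of mean log2 signal (horizontal axis) at 48 h and 72 h for the genes of 11 lists; each circle is a gene, filled red where it passed the threshold, and the blue bar is the list's median. The red circles are Vegfa at both times, Ndrg1 at 48 h and Ddx4 at 72 h, and all genes of the histone methylation lists are open circles.

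Among 7 measured readers of methylated H3K9, the medians were -0.05 and -0.01, the latter 0.11 without Dox 72 h replicate 3. Atrx, a chromatin remodeler that binds trimethylated H3K9, read 8.55, 8.56 and 8.45 in the controls, 8.12, 8.37 and 8.45 at 48 h and 8.15, 8.05 and 7.90 at 72 h. Its 72 h arrays lay below all controls (-0.49 ± 0.10, SE; 0.713-fold, adjusted p = 0.0542). Cbx1, the heterochromatin protein HP1 beta, read 7.88, 7.81 and 7.68 in the controls, 7.80, 7.72 and 7.84 at 48 h and 8.07, 8.06 and 8.08 at 72 h, so that its 72 h arrays were above all others. That difference was 0.28 ± 0.07 (SE; 1.22-fold, adjusted p = 0.0887).

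Of 7 partners of Setdb1 and HUSH complex genes, the medians were -0.04 at 48 h and -0.18 at 72 h, or -0.07 without Dox 72 h replicate 3, on which 5 of the 7 were lowest. Atf7ip, which protects Setdb1 from degradation, had 9.81, 9.78 and 9.72 in the controls and 9.63, 9.57 and 9.27 at 72 h (-0.28, adjusted p = 0.205), and without replicate 3 of that group the difference was -0.17. At 48 h Atf7ip was at 0.07 with overlapping groups. Chaf1a, the large subunit of the histone chaperone CAF-1, had 7.45, 7.58 and 7.49 in the controls and 7.32, 7.09 and 7.34 at 48 h (-0.26, adjusted p = 0.329). At 72 h Chaf1a was at 0.03 with overlapping groups, or 0.08 without replicate 3. Neither gene passed, and each lay wholly below the controls at 1 of the times, Atf7ip at 72 h and Chaf1a at 48 h. The 2 measured zinc finger partners of the Ehmt heterodimer, Wiz and Zfp462, differed by -0.10 each at 48 h and by -0.05 and -0.16 at 72 h (Zfp462 by -0.10 without replicate 3).

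Genes for the methylation of other histone sites gave the same count, with 0 of 9 for H3K4, 0 of 6 for H3K27 and 0 of 6 for H3K36 and H3K79 past the threshold at either time. The medians of the H3K4 list were 0.15 at 48 h and -0.23 at 72 h. Of its 9 genes, 7 were lowest on Dox 72 h replicate 3, and without that array the 72 h median was -0.07. The H3K27 list had medians of 0.03 and -0.11 (-0.08 without the array), and the H3K36 and H3K79 list 0.06 and -0.08 (-0.02 without it). In the H3K4 list Kmt2b, an H3K4 methyltransferase, was 0.31 higher at 48 h with all arrays above the controls (adjusted p = 0.264), and Setd1a, which also methylates H3K4, was at -0.26 at 72 h with all arrays below (adjusted p = 0.147). The H3K27 demethylases Kdm6a and Kdm6b were at -0.20 and -0.43 at 72 h (adjusted p = 0.216 and 0.201), both lowest on the Dox 72 h replicate 3 array, without which they were at -0.145 and -0.253. Setd2, which trimethylates H3K36, was at -0.34 at 72 h (adjusted p = 0.107) and Kdm2a, which removes methyl groups from H3K36, at 0.36 at 48 h (adjusted p = 0.282).

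A list of 10 germ line genes named as silenced through H3K9 methylation was read, although the arrays do not measure the mark at these genes. Of its 9 measured genes, 1 rose and 0 fell at 72 h and 0 passed at 48 h. The gene was Ddx4, the germ cell RNA helicase Vasa, with 4.60, 4.42 and 4.18 in the controls, 4.97, 4.88 and 4.94 at 48 h and 5.40, 5.55 and 5.54 at 72 h. The 3 groups did not overlap. Ddx4 rose by 1.10 ± 0.11 (SE; 2.14-fold, interval 1.81 to 2.54) at 72 h (adjusted p = 0.00394) and stood 0.53 higher at 48 h (adjusted p = 0.0597), where it passed with dim probe sets removed (0.0386), with adjustment over named genes (0.0383), with array weights (0.042) and without control replicate 1 (0.0443). With the replicate number as a block over the control and 72 h arrays, its adjusted p was 0.0936, in a fit where 0 probe sets passed. The median of the list was 0.01 at 48 h and 0.04 at 72 h, and Slc25a31, the germ cell ADP/ATP carrier, was at -0.20 and then 0.12 over these times (adjusted p = 0.599 and 0.632), with overlapping groups at both times. Of 3 measured genes placed under Kdm3a or Kdm4c in mouse embryonic stem cells, 0 passed. Tcl1 was at 0.09 and 0.05, and Zfp57 at -0.15 and -0.15, at 48 h and 72 h.

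**Figure D4:**
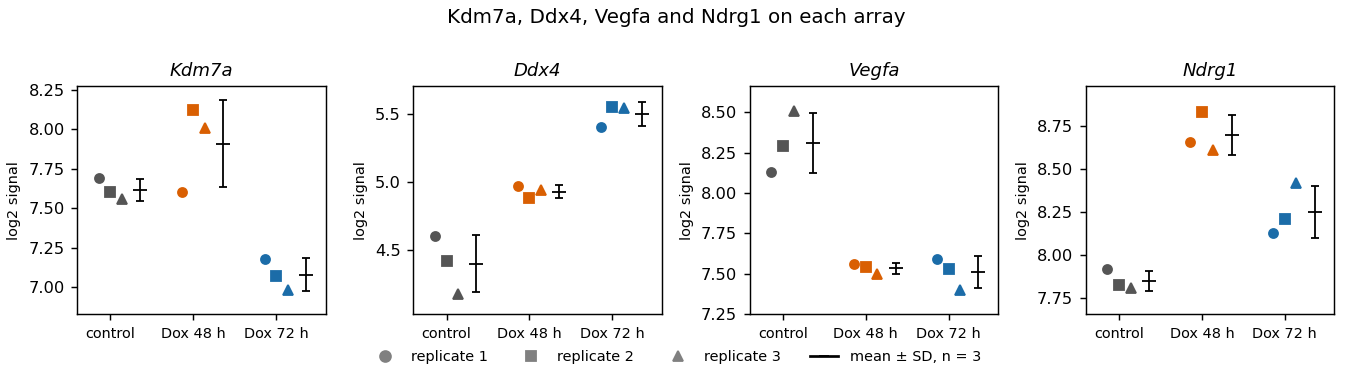
Log2 signal (vertical axis, its range set per panel) of Kdm7a, Ddx4, Vegfa and Ndrg1 on each array, by group, with replicates 1 to 3 as symbols and the mean with the SD over 3 arrays as a black bar. Ddx4 runs from 4.18 to 4.60 in the controls and 5.40 to 5.55 at 72 h, and Vegfa in all Dox arrays lies below the lowest control.

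Targets of the hypoxia-inducible factors (HIF), a pathway that also induces Kdm3a, were 9 measured genes, of which 1 rose and 1 fell at 48 h, 0 rose and 1 fell at 72 h. Vegfa, the vascular growth factor, read 8.13, 8.29 and 8.51 in the controls, 7.56, 7.54 and 7.50 at 48 h and 7.59, 7.53 and 7.40 at 72 h. It fell by 0.78 at 48 h (0.584-fold, adjusted p = 0.00953) and by 0.80 at 72 h (0.574-fold, adjusted p = 0.00996), with all 6 Dox arrays below the controls. In the block fit over control and 72 h arrays, where 0 probe sets passed, its adjusted p was 0.12. Ndrg1, a stress-response gene, read 7.92, 7.83 and 7.81 in the controls, 8.66, 8.83 and 8.61 at 48 h and 8.13, 8.21 and 8.42 at 72 h. It rose by 0.85 at 48 h (1.8-fold, adjusted p = 0.00526) and stood 0.40 higher at 72 h (adjusted p = 0.0772). These genes therefore passed in opposite directions, and the list's medians were 0.08 and -0.02, the latter 0.05 without Dox 72 h replicate 3.

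Beside these genes, Ptprc (CD45), the pan-leukocyte antigen, rose by 0.52 at 48 h (adjusted p = 0.0369), and Cd79b, a B cell receptor subunit, rose by 0.68 at 72 h (adjusted p = 0.0329). Both calls were lost in most fits with 1 array left out, but both passed without Dox 72 h replicate 3. There Ptprc was at 0.517 at 48 h (limma adjusted p = 0.013) and Cd79b at 0.529 at 72 h (0.0256). In the block fit over control and 72 h arrays, where 0 probe sets passed, Cd79b had an adjusted p of 0.129. Of 5 measured proliferation genes 0 passed at either time.

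The genes whose pattern over the 9 arrays was nearest to that of Kdm3a, by the root mean square difference of centred log2 values among 12376 genes, were Ulk3 (0.038), Zup1 (0.0488) and B230354K17Rik (0.054), against a root mean square deviation of 0.145 for Kdm3a itself. None passed at 48 h (0.31, 0.35 and 0.32, adjusted p = 0.107, 0.105 and 0.187). Nearest to Setdb1 were Khsrp (0.0261), Cep72 (0.0379) and Golga2 (0.0381), against 0.0966 for Setdb1. Their differences at 72 h were -0.20, -0.23 and -0.12 (adjusted p = 0.216, 0.168 and 0.451).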

How the data were processed

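Each sample was hybridised to 1 array, and the table deposited by the authors gives log2 signals, already normalized between arrays, for every probe set. The study's methods name RMA in the oligo package, while the processing notes of the submitters give MAS5 without a version. The array medians ran from 3.71 to 3.869, and the values were used as deposited, so any compression of small signals remains. Scanner files were not analysed here. The number of arrays limits the precision.

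A linear model with 1 mean per group was fitted to all 9 arrays with limma (3.58.1, R 4.3.3), with eBayes and Benjamini-Hochberg adjustment over 41345 probe sets, two-sided, at a threshold of 0.05. Intervals are 95% intervals from the moderated statistics. The fit was tested on simulated data, whose simulated spread was changed once, after a first version recovered fewer large changes than the preset minimum; the fit was not changed. In both versions the share of false calls in the single draw was above the nominal share, so adjusted p-values just under the threshold need caution. Promoters were read with pandas (2.3.3, Python 3.11.15).

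Members and lists were chosen with earlier results of these data known. Named genes were the 9 members, the list genes past the threshold in any comparison, the 2 smallest p-values of each list at 48 h or 72 h (for marker and proliferation lists only those past the threshold are printed), and the nearest patterns of Kdm3a and Setdb1. Klf4, Pou5f1, Sox2 and Myc were named only as the check of induction. Some H3K9 genes are not reported here. Deviations of same-numbered control and 72 h arrays correlated at 0.184, 0.108 and 0.277, all above 0.1, so the numbers may pair these 2 groups, with nothing in the labels on how. Same-numbered pairs with 48 h arrays did not (-0.407 to 0.0818). The fit without the block is reported. A block over control and 72 h arrays left 0 probe sets past the threshold. It therefore ended every 72 h call, including that of Klf4. Its adjusted p is given for Ddx4, Vegfa and Cd79b. Alternatives were scalings, a filter, array weights, other priors and each array left out.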

Additional observations from a re-analysis of the deposited data

How the results depend on the processing

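The count of H3K9 enzymes past the threshold was 0 in every comparison under every alternative run. Of the values of single enzymes, those that changed sign were all near 0 and uncalled. With each array centred on its median, Ehmt2, Jmjd1c and Kdm4c at 48 h became 0.0104, 0.034 and 0.0213, Kdm3b at 72 h became 0.0583, and Kdm4a, Kdm4b and Vegfa between the times became 0.0286, 0.0181 and 0.0315. Under quantile normalization Jmjd1c at 48 h became 0.00175 and Kdm4b between the times 0.0247. With array weights Jmjd1c at 48 h became 0.0191, Kdm3b at 72 h 0.0138 and Vegfa between the times 0.00742. With 1 array left out, values ran from -0.0508 to 0.0198 (Ehmt2), -0.0547 to 0.0783 (Jmjd1c) and -0.055 to 0.0348 (Kdm4c) at 48 h, -0.0947 to 0.0308 (Kdm3b) at 72 h, and between the times -0.0492 to 0.00108 (Kdm4a), -0.116 to 0.0398 (Kdm4b) and -0.0651 to 0.0311 (Vegfa). For both Dox times they ran from -0.00467 to 0.0659 (Ehmt2) and -0.00886 to 0.0539 (Kdm3b). The difference of demethylases and methyltransferases moved to 0.17 at 48 h and 0.246 at 72 h with medians over the genes. With means and 1 array left out, that difference ran from 0.0295 to 0.125 at 48 h and -0.0534 to 0.0441 at 72 h. Leaving arrays out was not run with medians. The cause was not tested. Medians of the other lists without Dox 72 h replicate 3 were computed after seeing the data.

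With the replicate block over all 9 arrays no enzyme changed its call. The same-numbered arrays correlated at -0.407 to 0.277, above 0.1 in 3 of 9 pairs. The block took the probe sets past the threshold from 662 to 327 at 48 h, 1028 to 258 at 72 h, 89 to 11 between the times and 949 to 471 for both times, and ended the calls of Vegfa at 48 h and 72 h (adjusted p = 0.0549 and 0.0546), Ptprc at 48 h (0.117) and Cd79b at 72 h (0.0768). A block over control and 72 h arrays alone, chosen after seeing the data, left 0 probe sets at 72 h. Without 1 array the counts ran from 289 to 716, 269 to 851, 14 to 63 and 354 to 855. With only the compared arrays they were 389, 370 and 19, and with dim probe sets removed 1500 at 72 h and 175 between the times. At 72 h, 479 were higher and 549 lower, against 633 and 398 with median centring. Each of the 9 genes had 1 probe set, so no other probe set could be tried, and the both-times comparison uses all arrays, so no subset fit exists. With 3 arrays a group, the enzymes needed differences of 0.354 (Ehmt2 at 72 h) to 0.743 (Kdm4b at 48 h) to pass against control at a single time.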
